A study of Oryza sativa with 12 samples.

Results

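A set of 89 rice loci was described whose transcripts were at least 4-fold lower under PEP1 than under ethanol in roots of an RNAi line and of the wild type. The 12 libraries were made from roots of 7-day-old seedlings of cultivar XS134, grown in a greenhouse. They came as 3 libraries each of the RNAi line treated with 1 µM PEP1, the RNAi line treated with ethanol, the wild type treated with 1 µM PEP1 and the wild type treated with ethanol. The RNAi plants are line 1, a single transgenic line directed against OsPEP1. The labels give neither the promoter of the RNAi construct, nor the length of the treatment, nor whether each library of a group stands for its own plants, so p-values reflect no more than the spread among these libraries, possibly a technical one. PEP1 is the signal added from outside, and ethanol is the treatment it was compared with.

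Members were chosen from their measured levels. Counts were scaled to the total of their library (CPM). In each genotype, a member had a mean of at least 2 CPM under ethanol and a ratio of at least 4 between the ethanol mean and the PEP1 mean, with 0.2 CPM added to both, and its PEP1 and ethanol libraries did not overlap. Of 55801 rows with a rice locus ID, 106 met these conditions, which is 0.19%. The conditions were met by 177 rows in the RNAi line taken alone, or 0.317%, and by 155 rows in the wild type taken alone, or 0.278%. A list of 18 loci was left out by name, most of them loci of iron uptake, and 17 of those 18 had met the conditions, so 89 of the 106 remained. All 89 passed the filter on low counts that left 25602 features for testing. Because the fall under PEP1 defined the members, its size is given below as a description with no test.

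Grasses take up iron by releasing phytosiderophores, chelators made from methionine by way of nicotianamine, and by importing the iron complex with transporters of the YSL family. Making nicotianamine leaves a by-product that the methionine salvage cycle turns back into methionine. Iron deficiency in rice roots is known to raise the transcripts of this route together, among them those of the cycle. The loci left out by name included NAS1 and NAS2, which encode nicotianamine synthases, NAAT1, which encodes the aminotransferase of phytosiderophore synthesis, the transporters YSL15, YSL2, IRT1, IRT2 and NRAMP1, and the transcription factor IRO3. Among the 89 members, 4 carried a symbol that could be matched by position to a reference gene table, and 85 are known here by their locus ID alone. These 4 were ARD2, an enzyme of methionine salvage, ZIP2 and ZIP9, members of a family of zinc and other metal transporters, and PT10, of the PHT1 family of phosphate transporters. Position cannot separate PT10 from its neighbouring copy PT9, or ZIP9 from its neighbouring copy ZIP5. The reference gene matched to ARD2 has HSFA2D as its main symbol and ARD2 as a synonym. ARD1, the symbol first written for that locus, found no match, so the name ARD2 is less sure.

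Total counts were between 15368736 and 21317008 per library. A count of 0 allows up to 3 counts, which is 0.141 to 0.195 CPM depending on the library, and such floors cover counting error only. Of the wild type libraries, PEP1 replicate 2 and ethanol replicate 1 stood apart. On the first principal component of log2(CPM + 1), which held 45.1% of the variance, they lay at 2.60 and -8.59, between the other PEP1 libraries (-87.4 to -24.0) and the other ethanol libraries (33.8 to 78.8). That component was taken over features above a low CPM limit, a filter other than that used for testing. Some summaries over the members are given with and without these wild type libraries, or without 1 of them. Others are given with all libraries only. The sources used here do not pair OsPEP1 with a locus ID, so its transcript could not be read as a check of the RNAi line. Among markers of other cell types, the 4 shoot loci summed to 61.1 to 703.6 CPM in RNAi PEP1 libraries, 10.5 to 64.3 CPM in RNAi ethanol libraries, 92.9 to 190.1 CPM in wild type PEP1 libraries and 26.4 to 283.1 CPM in wild type ethanol libraries. The 3 secondary wall loci of xylem summed to 85.3 to 345.0 CPM under PEP1 and 355.7 to 952.7 CPM under ethanol in the RNAi line, and to 223.5 to 311.4 CPM under PEP1 and 567.3 to 803.7 CPM under ethanol in the wild type. The single endodermis locus, CASP1, was at 22.3 to 80.3 CPM under PEP1 and 16.5 to 41.7 CPM under ethanol in the RNAi line, and at 50.2 to 97.2 CPM under PEP1 and 34.9 to 65.0 CPM under ethanol in the wild type. In the RNAi line all 3 xylem loci were called lower under PEP1 and 1 of the 4 shoot loci higher. In the wild type neither list held a call. Of all features, 6.68% were called lower and 8.68% higher in the RNAi line, and 2.66% and 2.54% in the wild type. LSI1 and LSI2, silicon transporters of exodermis and endodermis, were called higher under PEP1 in the wild type and not in the RNAi line, a difference between genotypes whose interaction did not pass. Of 3 root hair loci, 2 could be tested and neither was called. The part of these differences in the results was not tested, and in whole roots fewer cells of a type and less RNA per cell cannot be told apart.

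The members together took up 0.134% to 0.170% of the counts under PEP1 and 1.10% to 1.31% under ethanol in the RNAi line. In the wild type they took up 0.116% to 0.153% under PEP1 and 1.03% to 1.34% under ethanol. The 17 left-out loci were of a similar weight, with sums of 632.9 to 999.6 CPM under PEP1 and 11221 to 13948 CPM under ethanol in the RNAi line. In the wild type their sums were 270.7 to 746.6 CPM under PEP1 and 10353 to 14798 CPM under ethanol.

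**Figure D1:**
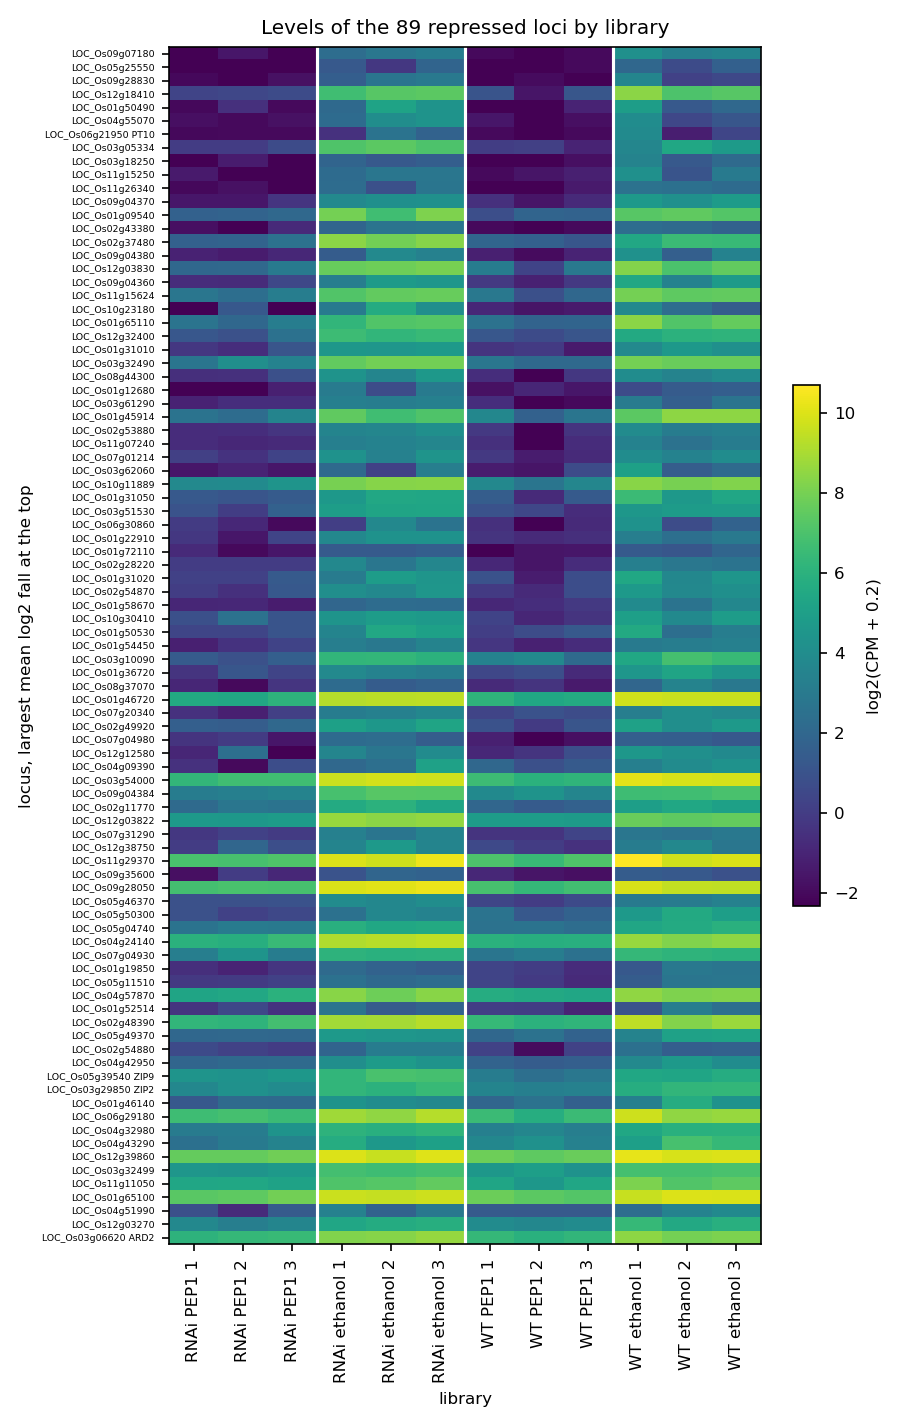
Level of each of the 89 repressed loci, as log2(CPM + 0.2), in the 12 libraries, with PEP1 left of ethanol in the RNAi line and then in the wild type. Rows are ordered by the mean of both log2 falls, and the PEP1 columns are darker than the ethanol columns of the same genotype in every row, as the selection requires.

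Across the members, the level left under PEP1 had a median of 6.84% of the ethanol mean in the RNAi line, with a range of 0% to 24.7%. In the wild type the median was 5.03%, with a range of 0.241% to 24.2%. The ratio used for the selection had a median of 11.7 in the RNAi line and 13.7 in the wild type, and for the 17 left-out loci its medians were 11.1 and 15.9. The ratio was at least 16 in both genotypes for 28 members, under 8 in both for 23 members, and in neither class for 38 members. It was larger in the RNAi line for 25 members and larger in the wild type for 64 members. Without both libraries that stood apart, these counts were 42 and 47, and the wild type had a median ratio of 10.3 and a median of 7.64% left, so that its medians showed a smaller fall than those of the RNAi line. In the fit across all features (edgeR's quasi-likelihood test, threshold of 0.05 on the adjusted p), 87 members were called lower in the RNAi line, where 6.68% of all features were called lower, and 82 in the wild type, where 2.66% were. Nothing is read from these counts, since the selection used the same libraries. The median log2 change of the members was -3.84 in the RNAi line and -4.28 in the wild type, and over all features tested it was -0.00614 in the RNAi line and -0.000597 in the wild type. Without both libraries that stood apart the members had medians of -3.84 in the RNAi line and -3.57 in the wild type. The wild type change of 36 members then moved by over 1.5 times, with a smaller fall for 33 of them, and without wild type ethanol replicate 1 alone 14 members moved that far, all to a smaller fall.

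Selection in each genotype did not require the genotypes to be apart from each other. With the falls that it did require, all 6 ethanol libraries lay above all 6 PEP1 libraries for 87 members, which is a description of the selected values. The exceptions were LOC_Os03g62060, whose highest PEP1 library had 1.37 CPM and whose lowest ethanol library had 0.926 CPM, and LOC_Os05g50300, with 6.06 CPM and 5.65 CPM in those libraries.

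**Figure D2:**
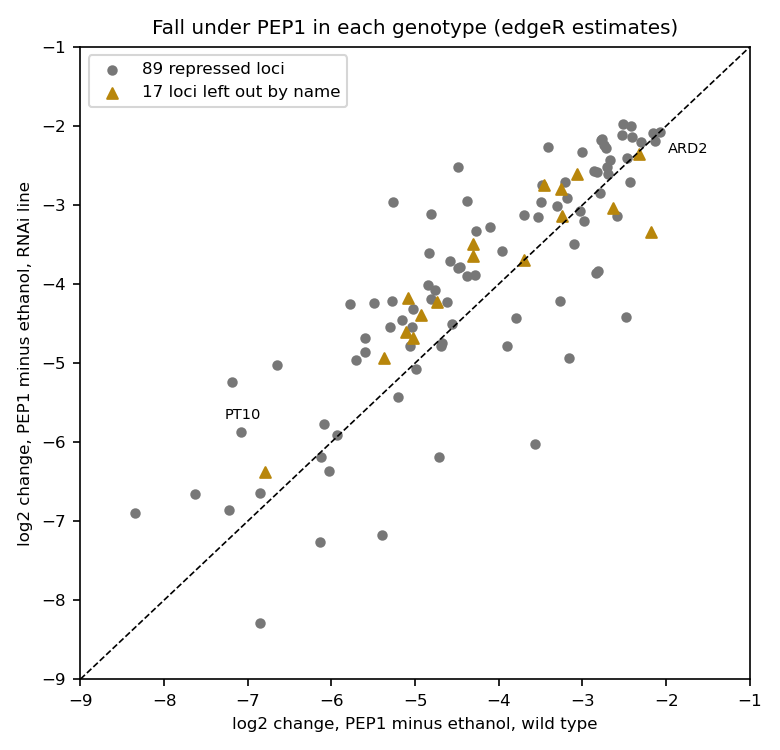
Log2 change between PEP1 and ethanol in the wild type (x axis) and in the RNAi line (y axis), both estimated by edgeR, for the 89 repressed loci (circles) and the 17 loci left out by name (triangles). The dashed line marks equal change, and the members run from about -2 to past -8 on both axes with the left-out loci spread among them.

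Methionine salvage was represented by LOC_Os03g06620, if its match to ARD2, an acireductone dioxygenase, holds. ARD2 had 67.8, 81.6 and 85.3 CPM under PEP1 in the RNAi line, against 298, 317 and 396 CPM under ethanol. Its wild type libraries had 79.7, 59.9 and 74.5 CPM under PEP1, against 359, 247 and 279 CPM under ethanol. No PEP1 library of either genotype reached the level of an ethanol library, and the log2 change was -2.07 ± 0.21 in the RNAi line and -2.07 ± 0.21 in the wild type (± SE). ARD2 was among the smallest falls of the set, and without RNAi ethanol replicate 3, wild type PEP1 replicate 2 or wild type ethanol replicate 1 it no longer met the selection. The other loci listed under the methionine cycle were LOC_Os09g28050 and LOC_Os11g11050, both members, and 3 loci that were not. LOC_Os09g28050 had 113, 122 and 121 CPM under PEP1 in the RNAi line, against 997, 1093 and 1266 CPM under ethanol. Levels in the wild type were 118, 81.3 and 107 CPM under PEP1, against 946, 724 and 694 CPM under ethanol. Both genotypes were lower under PEP1 in every library, with little spread within a group. LOC_Os11g11050 had 40.6, 43.1 and 35.4 CPM under PEP1 in the RNAi line, against 139, 154 and 188 CPM under ethanol, and 39.6, 23.7 and 41.7 CPM under PEP1, against 278, 142 and 173 CPM under ethanol in the wild type. Of the 3 listed loci outside the set, MTK1 (LOC_Os04g57400), a kinase of methionine salvage, had a log2 change of -1.56 ± 0.25 in the RNAi line (adjusted p = 0.00377) and -1.64 ± 0.25 in the wild type (adjusted p = 0.00377, edgeR). The remaining loci, LOC_Os06g02220 and LOC_Os05g04510, had log2 changes of -1.71 and -1.39 in the RNAi line and of -1.70 and -1.44 in the wild type. All 6 loci of the list were called lower in both genotypes. Of all features, 6.68% were called lower in the RNAi line and 2.66% in the wild type. The 6 loci had a median log2 change of -1.84 in the RNAi line and -1.88 in the wild type. However, 3 of the 6 are members and were chosen for their fall.

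ZIP9 (LOC_Os05g39540) and ZIP2 (LOC_Os03g29850) encode metal transporters of the ZIP family, in which zinc is the best known cargo. ZIP9 had 21.2, 19.4 and 23.6 CPM under PEP1 in the RNAi line, against 76.2, 123 and 117 CPM under ethanol. Wild type roots had 8.61, 5.27 and 6.81 CPM under PEP1, against 43.2, 39.7 and 52.7 CPM under ethanol. The RNAi libraries lay above the wild type libraries of the same treatment in every case, while the fall under PEP1 was -2.28 ± 0.23 on the log2 scale in the RNAi line and -2.72 ± 0.24 in the wild type. ZIP2 had 12.6, 18.9 and 15.3 CPM under PEP1 in the RNAi line, against 76.3, 66.5 and 85.2 CPM under ethanol. The wild type libraries of this locus had 11.6, 9.70 and 10.3 CPM under PEP1, against 54.2, 76.1 and 77.6 CPM under ethanol. Its ethanol libraries overlapped between the genotypes, and all 3 PEP1 libraries of the RNAi line lay above all 3 of the wild type. That difference under PEP1 did not pass, with a log2 difference of 0.61 ± 0.19 (edgeR, adjusted p = 0.205).

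PT10 (LOC_Os06g21950), a phosphate transporter of the PHT1 family, was the most uneven member in wild type ethanol. It had 0.0469, 0.0497 and 0.0495 CPM under PEP1 in the RNAi line, against 0.533, 5.99 and 3.22 CPM under ethanol. Its wild type libraries had 0.0489, 0 and 0.0473 CPM under PEP1, against 14.7, 0.231 and 1.13 CPM under ethanol. Each PEP1 library held a single count or none, and among ethanol libraries wild type replicate 1 was 63.6 times the level of replicate 2. Its RNAi counts gave a ratio of ethanol over PEP1 of 66.4 (95% interval 22.3 to 325.1, counting error only) and its wild type counts one of 154.1 (42.2 to 1279). Without wild type ethanol replicate 1 the wild type ratio was 18.8 (4.63 to 165.2), and without RNAi ethanol replicate 2 the RNAi ratio was 36.5 (11.9 to 182.0). Without wild type ethanol replicate 1 or without RNAi ethanol replicate 2, PT10 no longer met the selection. Its fitted log2 change was -5.87 ± 1.67 in the RNAi line and -7.08 ± 1.76 in the wild type, or -4.01 without wild type ethanol replicate 1. PT10 was not the only phosphate locus within the selection limits, since PT6 and SPX5 also met them and were left out by name. PT6 had log2 changes of -3.69 in the RNAi line and -3.70 in the wild type, and SPX5 of -3.35 and -2.18. A list of 12 other loci of phosphate signalling and transport held no member, and 10 of them could be tested. In the RNAi line 2 were called lower and none higher, against 6.68% and 8.68% of all features. In the wild type 1 was called lower and 1 higher, against 2.66% and 2.54% of all features.

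LOC_Os01g45914 was the only member on a list of 19 further iron loci. It had 6.10, 4.67 and 11.7 CPM under PEP1 in the RNAi line, against 181, 104 and 135 CPM under ethanol. Levels in the wild type were 12.8, 3.12 and 6.48 CPM under PEP1, against 172, 350 and 355 CPM under ethanol. The log2 change was -4.21 ± 0.53 in the RNAi line and -5.28 ± 0.56 in the wild type, or -5.92 in the wild type without its PEP1 replicate 1. In that list 3 loci were called lower and 7 higher in the RNAi line, against 6.68% and 8.68% of all features. The wild type had 3 called lower and 2 higher, against 2.66% and 2.54% of all features. The member was among the lower ones in each genotype. The median log2 change of the list was 0.16 in the RNAi line and -0.27 in the wild type. Of 11 listed nitrogen loci, none was a member. In the RNAi line 2 of them were called lower and 2 higher, against 6.68% and 8.68% of all features. In the wild type 4 of them were called lower and none higher, against 2.66% and 2.54% of all features.

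The members with the highest ethanol levels were known by ID alone, apart from ARD2. LOC_Os11g29370 had 122, 120 and 136 CPM under PEP1 in the RNAi line, against 1008, 815 and 1317 CPM under ethanol, and 132, 89.0 and 136 CPM under PEP1, against 1642, 862 and 969 CPM under ethanol in the wild type. LOC_Os12g39860 had 197, 195 and 236 CPM under PEP1 in the RNAi line, against 1012, 760 and 1055 CPM under ethanol, and 226, 177 and 207 CPM under PEP1, against 1185, 954 and 1027 CPM under ethanol in the wild type. LOC_Os03g54000 had 79.0, 103 and 103 CPM under PEP1 in the RNAi line, against 790, 904 and 855 CPM under ethanol, and 95.7, 62.5 and 73.9 CPM under PEP1, against 1120, 940 and 905 CPM under ethanol in the wild type. These 3 loci kept a clear signal under PEP1 in all 6 libraries, so their falls do not rest on counts near 0. LOC_Os01g46720 averaged 52.6 ± 12.2 CPM under PEP1 and 639 ± 31.3 CPM under ethanol in the RNAi line, and 53.5 ± 14.0 CPM under PEP1 and 819 ± 40.0 CPM under ethanol in the wild type (mean ± SD, n = 3 each). LOC_Os06g29180 averaged 103 ± 10.9 CPM under PEP1 and 475 ± 117 CPM under ethanol in the RNAi line, and 80.0 ± 21.7 CPM under PEP1 and 534 ± 248 CPM under ethanol in the wild type. LOC_Os02g48390 had a log2 change of -2.61 ± 0.29 in the RNAi line and -2.69 ± 0.29 in the wild type. For all 6 of these loci the highest of the 12 libraries was wild type ethanol replicate 1. The other members named for their high ethanol level, described elsewhere in the text, peaked in other libraries. LOC_Os09g28050, LOC_Os04g24140 and ARD2 were highest in RNAi ethanol replicate 3, and LOC_Os01g65100 in wild type ethanol replicate 2.

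By the smaller of their log2 falls with all libraries, LOC_Os09g07180, LOC_Os12g18410, LOC_Os05g25550, LOC_Os09g28830 and LOC_Os01g50490 fell furthest. Without wild type ethanol replicate 1, the wild type log2 change of LOC_Os01g50490 went from -6.85 to -4.81. That of LOC_Os09g28830 went from -7.64 to -5.44. LOC_Os12g18410 had 1.08, 1.14 and 1.38 CPM under PEP1 in the RNAi line, against 102, 158 and 167 CPM under ethanol. Wild type roots had 1.91, 0.130 and 2.03 CPM under PEP1, against 338, 132 and 158 CPM under ethanol. Its PEP1 and ethanol libraries were far apart in every replicate, and its log2 change was -6.86 ± 0.70 in the RNAi line and -7.23 ± 0.71 in the wild type, or -6.13 without both wild type libraries that stood apart. LOC_Os09g07180 had 0, 0.149 and 0 CPM under PEP1 in the RNAi line, against 4.85, 6.91 and 8.68 CPM under ethanol, and 0.0489, 0 and 0.0473 CPM under PEP1, against 18.3, 9.93 and 11.6 CPM under ethanol in the wild type. Its ratio of ethanol over PEP1 was 138.2 in the RNAi line (95% interval 46.9 to 673.3) and 378.9 in the wild type (104.5 to 3136), or 223.7 (61.5 to 1855) without both libraries that stood apart. LOC_Os05g25550 had no count in any PEP1 library of the RNAi line, against 2.29, 0.653 and 3.47 CPM under ethanol. Set against 3 counts over the group, its mean was at least 44.0-fold lower, a bound that leaves out the spread of the ethanol libraries. Without RNAi ethanol replicate 3 the locus no longer met the selection. The wild type libraries of this locus had 0, 0 and 0.0473 CPM under PEP1, against 3.88, 1.39 and 3.01 CPM under ethanol. LOC_Os09g28830 had 0.0469, 0 and 0.0989 CPM under PEP1 in the RNAi line, against 2.77, 6.53 and 7.56 CPM under ethanol, and 0, 0.0651 and 0 CPM under PEP1, against 11.8, 0.924 and 1.19 CPM under ethanol in the wild type, where replicate 1 held most of the signal and without which the locus no longer met the selection. Counts of 0 under PEP1 occurred in at least 1 library for 20 members, and no member had a count of 0 under ethanol.

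Some loci lay close to the selection limits. Just inside them, LOC_Os01g65100 had a ratio of 4.05 in the RNAi line and 5.26 in the wild type, LOC_Os11g11050 had a ratio of 4.03 in the RNAi line and 5.62 in the wild type, and LOC_Os04g51990 had a ratio of 4.19 in the RNAi line and 4.10 in the wild type. Just outside, LOC_Os07g42324 had a ratio of 4.81 in the RNAi line and 3.98 in the wild type, LOC_Os01g48010 had a ratio of 4.14 in the RNAi line and 3.97 in the wild type, and LOC_Os04g57410 had a ratio of 3.93 in the RNAi line and 4.16 in the wild type. Leaving out each library in turn kept 72 of the 89 members every time and dropped the other 17 at least once. Among them, LOC_Os11g11050 was dropped without RNAi PEP1 replicate 3 or RNAi ethanol replicate 3, and LOC_Os04g55070 without wild type ethanol replicate 1. Without both libraries that stood apart, 97 loci met the selection and 80 of them were members.

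By their ID numbers, 19 of the 89 members fell into 8 runs in which successive members were at most 100 apart, some with other loci between them, with 6 runs of 2 loci, 1 of 3 and 1 of 4. The run of 4 was on chromosome 9. LOC_Os09g04360 had 0.422, 0.397 and 1.19 CPM under PEP1 in the RNAi line, against 9.12, 27.3 and 22.2 CPM under ethanol, and 0.685, 0.260 and 0.709 CPM under PEP1, against 44.9, 10.6 and 26.6 CPM under ethanol in the wild type. LOC_Os09g04370 had 0.141, 0.149 and 0.593 CPM under PEP1 in the RNAi line, against 13.7, 17.5 and 18.1 CPM under ethanol, and 0.489, 0.130 and 0.378 CPM under PEP1, against 24.9, 18.5 and 27.9 CPM under ethanol in the wild type. LOC_Os09g04380 had 0.281, 0.199 and 0.346 CPM under PEP1 in the RNAi line, against 2.56, 13.6 and 10.4 CPM under ethanol, and 0.245, 0.0651 and 0.284 CPM under PEP1, against 19.1, 2.89 and 10.8 CPM under ethanol in the wild type. These 3 neighbours kept little signal under PEP1 in both genotypes. The fourth, LOC_Os09g04384, had 8.54, 9.59 and 10.9 CPM under PEP1 in the RNAi line, against 119, 156 and 155 CPM under ethanol, and 14.4, 20.4 and 12.1 CPM under PEP1, against 99.1, 102 and 124 CPM under ethanol in the wild type, so that its share left was larger. The run of 3, on chromosome 1, was LOC_Os01g31010, LOC_Os01g31020 and LOC_Os01g31050, with log2 changes of -4.54, -3.80 and -4.02 in the RNAi line and -5.30, -4.49 and -4.85 in the wild type. Without both libraries that stood apart LOC_Os01g31020 was at -3.36 and LOC_Os01g31050 at -3.63 in the wild type, and without RNAi PEP1 replicate 3 LOC_Os01g31010 was at -5.33 in the RNAi line. The loci between them in the table, LOC_Os01g31030 and LOC_Os01g31040, averaged under 1 CPM in every group and had log2 changes of -2.66 and -2.84 in the RNAi line and -4.71 and -6.67 in the wild type.

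Neighbours did not always fall to the same extent. LOC_Os01g65110 had 6.29, 3.92 and 8.95 CPM under PEP1 in the RNAi line, against 75.1, 142 and 151 CPM under ethanol, and 5.82, 3.38 and 3.45 CPM under PEP1, against 345, 141 and 193 CPM under ethanol in the wild type. Beside it, LOC_Os01g65100 had 161, 178 and 243 CPM under PEP1 in the RNAi line, against 794, 746 and 815 CPM under ethanol, and 214, 167 and 145 CPM under PEP1, against 764, 1007 and 995 CPM under ethanol in the wild type. LOC_Os01g65110 kept 5.21% of its ethanol mean in the RNAi line and 1.86% in the wild type, and LOC_Os01g65100 kept 24.7% and 19.0%. LOC_Os03g32490 and LOC_Os03g32499 differed in the same way, with log2 changes of -4.23 and -2.20 in the RNAi line and -5.49 and -2.30 in the wild type. Between LOC_Os07g04930 and LOC_Os07g04980, which had log2 changes of -2.27 and -2.95 in the RNAi line and -3.41 and -4.38 in the wild type, lay 4 loci with smaller changes, from -1.12 to -0.25 in the RNAi line and from -1.68 to -1.20 in the wild type. LOC_Os07g04930 was at -2.86 in the RNAi line without RNAi PEP1 replicate 2. In the wild type LOC_Os07g04980 was at -5.46 without PEP1 replicate 1 and at -3.76 without both libraries that stood apart. LOC_Os02g43380 lay at ID distances of 10 and 30 from the left-out transporters YSL2 and YSL15. It had 0.0938, 0 and 0.396 CPM under PEP1 in the RNAi line, against 3.63, 6.26 and 6.63 CPM under ethanol, and 0.0489, 0 and 0.0473 CPM under PEP1, against 4.76, 4.27 and 3.26 CPM under ethanol in the wild type. Whether counting used strand is not given, so reads of overlapping or near-identical neighbours cannot be told apart from those of the members. Members were found on all 12 chromosomes, from 2 on chromosome 8 to 19 on chromosome 1.

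**Figure D3:**
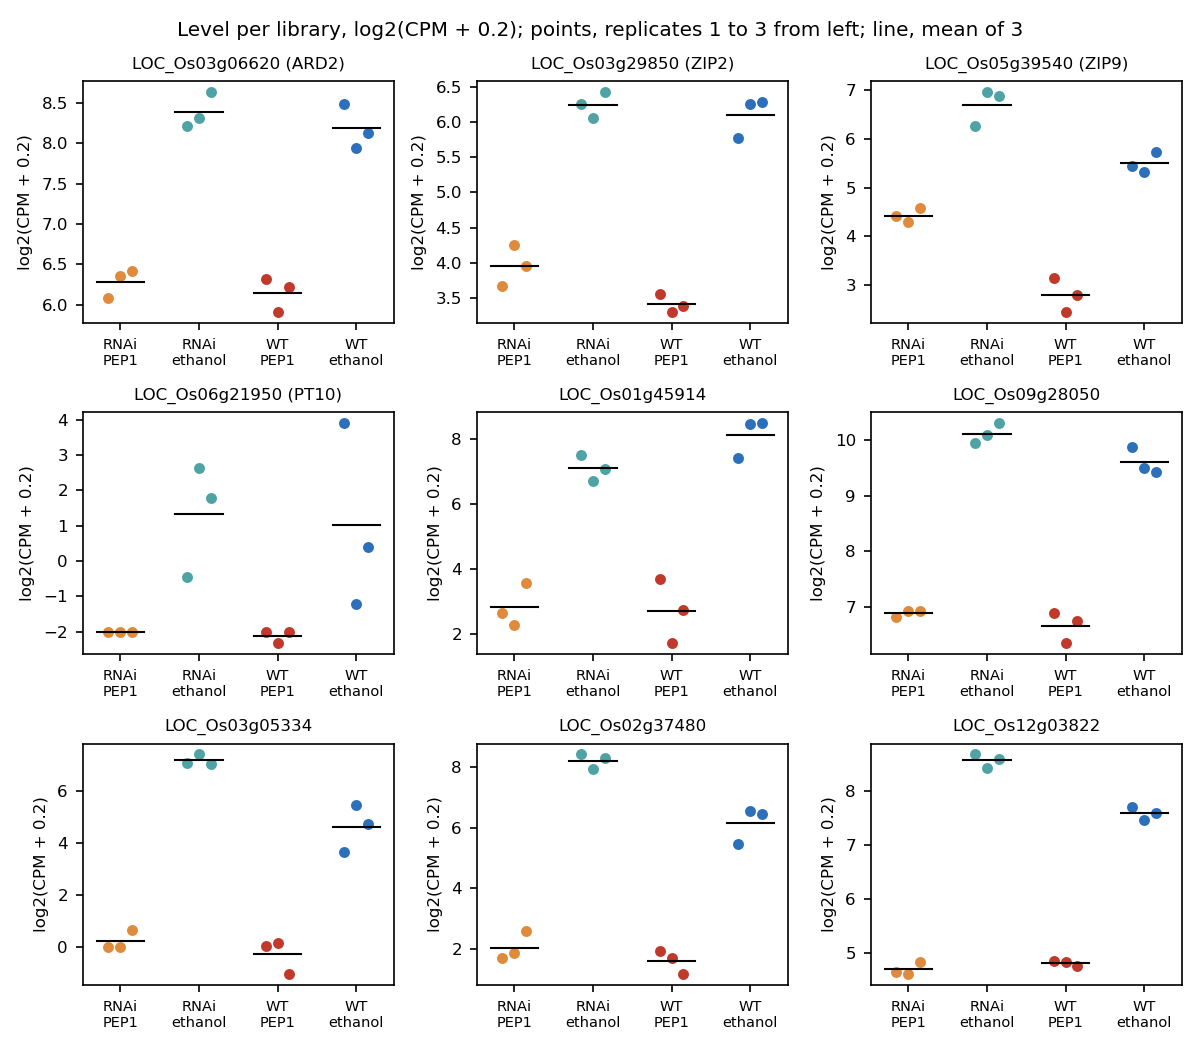
Levels per library, as log2(CPM + 0.2), of 9 members in RNAi PEP1, RNAi ethanol, wild type PEP1 and wild type ethanol. Points are replicates 1 to 3 from the left and lines are means of 3. ZIP9 sits higher in the RNAi line under both treatments, LOC_Os03g05334, LOC_Os02g37480 and LOC_Os12g03822 under ethanol, and PT10 is spread widely under ethanol.

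The ethanol libraries of a group were uneven for part of the members. The highest of 3 libraries was more than 4 times the lowest for 10 members in RNAi ethanol and 14 members in wild type ethanol. LOC_Os06g30860 had 0.751, 0.348 and 0.0495 CPM under PEP1 in the RNAi line, against 0.853, 13.2 and 6.07 CPM under ethanol, and 0.489, 0 and 0.378 CPM under PEP1, against 19.8, 1.44 and 3.26 CPM under ethanol in the wild type. LOC_Os01g50490 had 0.0469, 0.497 and 0.0495 CPM under PEP1 in the RNAi line, against 4.16, 37.5 and 20.2 CPM under ethanol, and 0, 0 and 0.284 CPM under PEP1, against 30.3, 2.31 and 3.94 CPM under ethanol in the wild type. Both were low in RNAi ethanol replicate 1 and high in wild type ethanol replicate 1. LOC_Os04g55070 had 0.0938, 0.0497 and 0.0989 CPM under PEP1 in the RNAi line, against 4.43, 16.2 and 20.1 CPM under ethanol, and 0.147, 0 and 0.0945 CPM under PEP1, against 15.6, 1.16 and 2.0 CPM under ethanol in the wild type. RNAi PEP1 replicate 2 was the library with 703.6 CPM of shoot markers. It was the highest of its group for LOC_Os10g30410, with 1.59, 5.86 and 1.88 CPM, and for LOC_Os12g12580, with 0.328, 5.17 and 0 CPM. Any relation between these was not tested. This library was the highest for 28 members, or 31.5%, and the lowest for 38, or 42.7%. Among 19446 loci tested with at least 2 CPM under ethanol in both genotypes, these shares were 28.6% and 49.8%. LOC_Os01g46140 showed another order, with 20.3, 15.7 and 13.5 CPM in RNAi ethanol and 9.58, 52.4 and 19.9 CPM in wild type ethanol, where replicate 1 was the lowest.

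Wild type ethanol replicate 1 was the highest of its group for 52 members, or 58.4%, against 29.9% of 19446 loci tested with at least 2 CPM under ethanol in both genotypes. It was the lowest for 29 members, or 32.6%, against 46.8% of those loci. It was at the same time the highest while RNAi ethanol replicate 1 was the lowest for 35 members, or 39.3%, against 17.8% of those loci. The share was 47.1% for the 17 left-out loci. The selection asked for high ethanol levels, so these shares are a description. On the first principal component given above, wild type ethanol replicate 1 lay towards the PEP1 libraries, whereas the members were mostly higher, not lower, in that library.

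**Figure D4:**
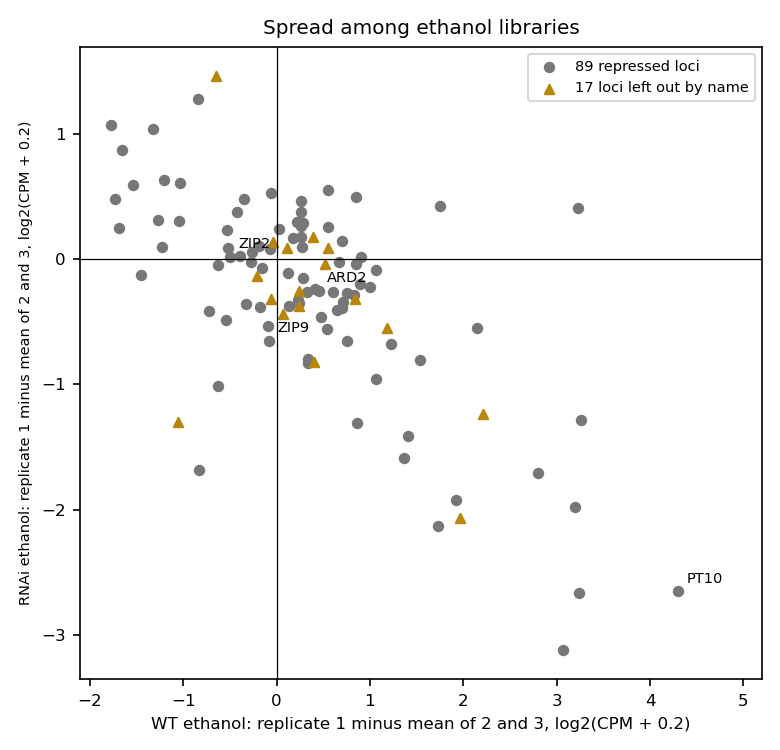
Replicate 1 minus the mean of replicates 2 and 3, in log2(CPM + 0.2), in wild type ethanol (x axis) and RNAi ethanol (y axis), for the 89 repressed loci (circles) and the 17 left-out loci (triangles). PT10 lies furthest to the right, at 4.30 and -2.65, and 35 members were highest in the first library and lowest in the second.

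The selection did not use the difference between genotypes, although it held the ethanol level of both above 2 CPM and fixed a fall in both. Under ethanol, 5 members were higher and 1 was lower in the RNAi line than in the wild type, or 5.62% and 1.12% of the members, where 2.16% and 1.63% of all features were called higher and lower. In all 6 of 89 members passed, or 6.74%, against 3.79% of all features, and 15 members, or 16.9%, had an unadjusted p below 0.05, against 14.1% of all features. DESeq2 called 9 members, or 10.1%, against 5.77% of the features it tested. The median log2 difference of the members was -0.06. Means were higher in the RNAi line for 43 members, or 48.3%, against 49.8% of all features. Without wild type ethanol replicate 1 the median was 0.18, and means were higher in the RNAi line for 53 members, or 59.6%, against 49.8%.

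LOC_Os03g05334 showed the largest of these differences. It had 137, 170 and 132 CPM in RNAi ethanol, against 12.3, 43.5 and 26.7 CPM in wild type ethanol. The groups did not overlap, and the log2 difference was 2.40 ± 0.40 (edgeR, adjusted p = 0.00546). Under PEP1 it had 0.797, 0.795 and 1.38 CPM in the RNAi line and 0.831, 0.911 and 0.284 CPM in the wild type, which overlapped. LOC_Os02g37480 had 343, 245 and 316 CPM in RNAi ethanol and 43.6, 92.8 and 87.5 CPM in wild type ethanol, with a log2 difference of 2.0 ± 0.29 (edgeR, adjusted p = 0.00223). LOC_Os12g03822 had 408, 344 and 386 CPM and 209, 177 and 193 CPM in the same groups, with a log2 difference of 0.95 ± 0.11 (edgeR, adjusted p = 0.000419). These 3 loci passed under all 17 alternatives tried, and each was higher in all 3 RNAi libraries than in any wild type library.

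ZIP9 was higher in the RNAi line under both treatments. Under ethanol the log2 difference was 1.21 ± 0.23 (edgeR, adjusted p = 0.0109), and without RNAi ethanol replicate 2 or 3 the adjusted p was 0.0538 or 0.0558. Under PEP1 the log2 difference was 1.66 ± 0.23 (edgeR, adjusted p = 0.00215), and it passed under all 17 alternatives. LOC_Os04g24140 had 552, 623 and 703 CPM in RNAi ethanol and 407, 296 and 354 CPM in wild type ethanol, with a log2 difference of 0.81 ± 0.18 (edgeR, adjusted p = 0.0286). That call was lost, with adjusted p of 0.0512 to 0.129, without RNAi ethanol replicate 2 or 3, RNAi PEP1 replicate 1, or wild type ethanol replicate 2 or 3. LOC_Os05g50300 was the member lower in the RNAi line, with 5.65, 12.7 and 10.6 CPM against 24.8, 48.1 and 30.6 CPM in wild type ethanol and a log2 difference of -1.84 ± 0.43 (edgeR, adjusted p = 0.0403). It was lost, with adjusted p of 0.0555 to 0.129, without any 1 of the 3 RNAi ethanol libraries, RNAi PEP1 replicate 1 or 3, wild type ethanol replicate 2 or 3, or wild type PEP1 replicate 3, and with the replicate number as a block (adjusted p = 0.0882).

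Under PEP1, 1 member was higher and 1 lower in the RNAi line, each 1.12% of the members, where 1.52% and 1.14% of all features were called higher and lower. In all, 2 of 89 members passed, or 2.25%, against 2.65% of all features. The higher one was ZIP9. The lower one was LOC_Os03g10090, with 2.49, 1.69 and 2.87 CPM in RNAi PEP1 and 10.6, 13.6 and 4.30 CPM in wild type PEP1, and a log2 difference of -1.95 ± 0.41 (edgeR, adjusted p = 0.0303). Its ethanol libraries had 76.2, 78.2 and 65.0 CPM in the RNAi line and 42.9, 116 and 87.0 CPM in the wild type, which overlapped. The call was lost, with adjusted p of 0.0503 to 0.143, without any 1 of the 3 RNAi ethanol or 3 RNAi PEP1 libraries or wild type PEP1 replicate 1 or 2, and with the replicate number as a block (adjusted p = 0.0651). Mean CPM under PEP1 was higher in the RNAi line for 64 of 89 members, or 71.9%, against 43.7% of all features. CPM is scaled to library totals only. By the fitted log2 differences, which use TMM factors, 62 of 89 members were positive, against 12941 of 25602 features. The median log2 difference was 0.30 over the members and 0.0033 over all features. Without wild type PEP1 replicate 2, means were higher in the RNAi line for 56 members, or 62.9%, against 54.1% of all features, with a median of 0.13 (log2). An unadjusted p below 0.05 was found for 16 members, or 18%, against 9.18% of all features, and DESeq2 called 6 members, or 6.74%, against 3.66%.

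**Figure D5:**
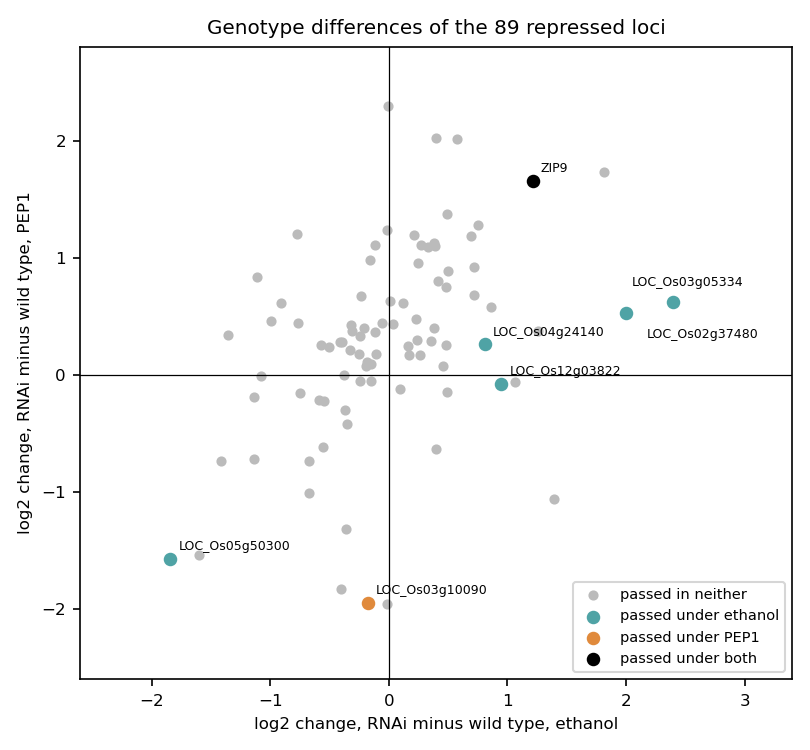
Log2 difference between the RNAi line and the wild type under ethanol (x axis) and under PEP1 (y axis) for the 89 repressed loci, estimated by edgeR. ZIP9 passed under both treatments, 5 others under ethanol and LOC_Os03g10090 under PEP1.

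No member passed the test of the interaction, that is, whether PEP1 changed a locus by the same amount in the RNAi line as in the wild type, by edgeR's quasi-likelihood test. Over all features edgeR called 0.00391%. The selection asked for a ratio of at least 4 in both genotypes, which limits this difference in the members. All features were not selected in that way, so nothing is read from the shares that follow. At an unadjusted p below 0.05 there were 10 members, or 11.2%, against 5.28% of all features. By DESeq2 2 members passed, LOC_Os09g04384 and LOC_Os12g03822, or 2.25%, against 0.331% of the features it tested. LOC_Os12g03822 had 25.0, 24.4 and 28.4 CPM under PEP1 in the RNAi line and 28.9, 28.6 and 27.0 CPM under PEP1 in the wild type, which overlapped, unlike its ethanol libraries. Its interaction was -1.03 ± 0.15 on the log2 scale (edgeR, adjusted p = 0.192). It passed without wild type ethanol replicate 1 (edgeR, adjusted p = 0.0423), within a range of 1.22e-06 by DESeq2 to 0.643 over the alternatives. LOC_Os09g04384 had an interaction of -1.03 ± 0.24 (edgeR, adjusted p = 0.449). The median interaction over the members was 0.38, and over the 17 left-out loci 0.45. Without both libraries that stood apart these medians were 0.12 and -0.17.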

How the data were processed

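RNA from roots was measured in 12 libraries, 3 in each of 4 groups. The authors deposited an unscaled table of read counts with 57265 features, of which 55801 have a rice locus ID. The libraries were made with a TruSeq kit from Trizol-extracted RNA, per the labels' protocols. For aligner, genome build, annotation and strand, the entry is "not given in the sources used here". Columns were matched to samples by title. All 12 libraries entered 1 fit of the 4 groups in edgeR 4.0.16 (TMM factors, default filter on low counts, quasi-likelihood test, Benjamini-Hochberg adjustment over 25602 features, threshold of 0.05). A standard error (SE) is the size of a log2 change over the root of its F statistic. The common biological coefficient of variation was 0.313. DESeq2 1.42.0 was an alternative. The script was tested on simulated data.

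None of the locus IDs matched the reference table (RefSeq genes of assembly ASM3414082v1, 39387 genes). Symbols were pairs written by hand. They were used only where that table lists the symbol, as main symbol or synonym, on the same chromosome within 0.03 of the relative position. This held for 50 of 74 pairs, and for 5 of 6 added after the data were seen, which include all 4 symbols of members. The locus LOC_Os11g11050 missed that limit, at 0.0316, and is given by ID. Named loci were those with a symbol, the 10 with the highest ethanol CPM, the 5 with the largest fall, the 3 just inside and the 3 just outside the limits, those passing a genotype test and those with neighbours within 100 in ID number. Further members were named for uneven ethanol libraries after their values were seen. The members and the lists were chosen with earlier results of these data known. Ratios of 1 to 3 counts carry exact 95% intervals. No pair of libraries in a group was a duplicate, with a chi-square per degree of freedom of at least 15.0. Sequences were not used here.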

Additional observations from a re-analysis of the deposited data

How the results depend on the processing

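With a ratio of at least 2 in place of 4, 323 loci met the selection in place of 89. Leaving out each replicate in turn gave 84 to 96 loci, a median log2 change of the members of -3.90 to -3.67 in the RNAi line and -4.32 to -3.85 in the wild type, 3 to 8 members passing between genotypes under ethanol, 1 to 2 under PEP1 and 0 to 1 for the interaction. Without both libraries that stood apart, an alternative chosen after seeing the data, the wild type median was -3.57 and the RNAi median -3.84, which turned round the order of the genotypes, and 8, 2 and 0 members passed in the tests under ethanol, under PEP1 and of the interaction. DESeq2 called 9, 6 and 2 members in those tests, and 1687, 1071 and 90 of all features, where edgeR called 971, 679 and 1. Same-numbered libraries did not pair across the 4 groups: their deviations correlated at -0.564 to 0.696, with 9 of 18 values above 0.1. All 3 values exceeded it only for wild type ethanol with RNAi PEP1 (0.237 to 0.696), groups that were not compared directly, and 5 of 12 libraries matched best with their own number. With the replicate number as a block, 5, 1 and 0 members passed, with medians of -3.85 in the RNAi line and -4.30 in the wild type. The cause of these shifts was not tested. TMM-scaled CPM gave 89 loci, of which 87 were members, an offset of 1 CPM gave 75, and an ethanol minimum of 5 CPM gave 72. No PEP1 change of a named member reversed its sign under the alternatives run. The selection for libraries that do not overlap left little room for that, so nothing is read from it. The median genotype difference under ethanol did reverse its sign without wild type ethanol replicate 1 (0.18 in place of -0.06). Members near 0 counts under PEP1 are limited by depth, and their fitted log2 changes depend on the prior count.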
